A study of Mus musculus with 72 samples.

Results

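Heat shock chaperones are proteins that hold, refold or pass on other proteins, and the genes that encode them are known for their fast induction by heat and other proteotoxic stress. The group described here holds 10 of the 55573 genes in the count table: Hspa1a, Hspa1b, Hspa8, Hspa4l, Hsph1, Hsp90aa1, Dnajb1, Dnaja1, Hspd1 and Hspe1. They were taken by name, through the Ensembl identifiers of the table, and all 10 had 1 row each and passed the filter on low counts. Their mRNA was followed over the day in liver, to see whether their rhythms were kept where hepatocytes lack the clock gene Bmal1 and where the animals carry no microbes.

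The 72 livers came from male C57BL/6 mice, 3 at each of 6 times (ZT2, 6, 10, 14, 18 and 22, where ZT0 is lights on and ZT12 lights off) in each of 4 arms of 18 mice. WT mice carried the floxed Bmal1 allele (Bmal1 fl/fl) without Cre, and LKO mice carried the same floxed allele with Cre driven by the Albumin promoter, which acts in hepatocytes and leaves Bmal1 in the other liver cells. Both genotypes were kept specific pathogen-free (SPF) or germ free (GF), so all 72 mice carried floxed Bmal1, and every arm had free access to autoclaved chow under equal light and dark phases. Libraries held 17369927 to 22076113 gene counts, and medians by arm lay between 18780659 (GF LKO) and 19861999 (SPF LKO), so that depth did not separate the arms. Nothing in the labels says that mice of 1 group shared a litter or a cage, and each mouse is counted as 1 replicate.

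Arntl, the gene symbol of Bmal1, had reads in every arm (median 15.7 and 11.6 CPM in SPF WT and SPF LKO, and 18.6 and 10.2 in GF WT and GF LKO, where CPM are counts per 1000000 counts of the library after TMM scaling). The counts cover the whole gene, and reads of the floxed part were not counted apart. Npas2, whose product pairs with BMAL1, told the genotypes apart, at up to 12.9 CPM in WT livers and at least 14.3 in LKO livers over all ZT, with 2 exceptions. The libraries labelled SPF LKO ZT14 replicate 2 and SPF LKO ZT18 replicate 1 had 0.220 and 1.81 CPM of Npas2, where the other 4 labelled SPF LKO at these times had 24.2 to 36.7 and the SPF WT livers at most 2.76. In time of day, Nr1d1 stood at 84.9 in SPF WT ZT14 replicate 3 against 3.09 and 8.63 in its group, and at 9.34 in GF WT ZT6 replicate 3 against 49.4 and 50.6. These 4 libraries were kept under their labels, and where a call for 1 of the 10 genes was lost without 1 of them, this is stated. Tests of genes outside the 10 are given only with these libraries included. Hepatocyte markers were abundant in every library, with a summed level of 41193 to 168015 CPM over 5 genes, while the 3 lymphocyte markers summed to 4.97 to 35.

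In the cell the chaperones work as a relay. DNAJ proteins (the HSP40 family) bring unfolded clients to HSP70 and stimulate its ATPase, HSP110 proteins exchange its nucleotide, HSP90 receives selected clients such as kinases and steroid receptors, and the HSP60 and HSP10 chaperonin folds proteins inside mitochondria. Their transcription is raised by heat shock factor 1 (HSF1), which binds inverted repeats of the unit GAA, while BMAL1 with CLOCK binds the E-box CACGTG. In mice, which feed and are warmest at night, heat shock genes of the liver are known to peak in the dark phase.

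The Hspa1a and Hspa1b genes encode the stress-inducible HSP70 and lie beside each other on chromosome 17 (Hspa1b at 34956436 to 34959238 and Hspa1a at 34969190 to 34972156, both on the minus strand of GRCm38, the build of the counts). They are near copies of each other. Over the 250 bases before their start sites they differed at 3 bases (98.8% identical), and 58.8% of all 50-base windows of Hspa1a, the length of the reads, were also found in Hspa1b. Reads from such windows map to more than 1 place and were not counted, so both genes are measured on their remaining parts and their levels are lower bounds. The Hspa1b sequence is shown because this gene had the widest swing over the day in 2 arms, with 2 heat shock units facing each other in capitals:
Hspa1b, GRCm38 chr17:34959239-34959488, minus strand: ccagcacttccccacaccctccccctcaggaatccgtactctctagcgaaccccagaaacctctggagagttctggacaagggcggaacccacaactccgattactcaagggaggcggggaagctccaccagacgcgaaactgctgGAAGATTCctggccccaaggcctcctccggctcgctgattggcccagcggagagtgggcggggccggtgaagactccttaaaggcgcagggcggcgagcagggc

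Promoters from RefSeq (GRCm38.p6, 250 bases before to 50 after each start site) were given for 8 of the 10 genes. A run of 2 heat shock units (GAANNTTC or TTCNNGAA, each its own reverse complement) was found in 6 of the 8, against 17% of 27025 genes. A run of 3 units (GAANNTTC followed after NN by GAA, or on the other strand TTCNNGAA followed after NN by TTC, and also counted as a run of 2) was found in 3 of the 8, against 0.662%. The E-box CACGTG, also its own reverse complement, was found in 2 of the 8, against 8.09%. Hspa4l and Dnajb1 held none of these letters in their windows. Some of the matches are shown in capitals, 5′ to 3′ on the strand of the gene, because they are the sequences that HSF1 and the clock are known to read:
Hspe1, 3 units, chr1:55088055-55088084, plus strand: tccgttctaGAACCTTCCGGAAggccccgc
Hspd1, 3 units, chr1:55088051-55088080, minus strand: ggccttccgGAAGGTTCTAGAAcggaccgt
Hspd1, E-box, chr1:55088306-55088335, minus strand: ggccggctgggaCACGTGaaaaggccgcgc
Hsph1, 3 units, chr5:149636280-149636309, minus strand: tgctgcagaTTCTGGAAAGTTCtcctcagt
Hsph1, E-box, chr5:149636317-149636346, minus strand: aagcggaagtggCACGTGgaggcgccggtg
Dnaja1, 2 units, chr4:40722333-40722362, plus strand: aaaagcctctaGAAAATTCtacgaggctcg
The Hspd1 and Hspe1 windows overlap, because both genes start from the same stretch of chromosome 1 and run in opposite directions (Hspd1 from 55088243 down to 55077835, Hspe1 from 55088132 up to 55091307), with 5′ ends that overlap in the annotation. The runs of 3 units in Hspd1 and Hspe1 lie on the same bases (55088059 to 55088076), read on opposite strands. This stretch is therefore counted for both genes among the 3 of 8 and the 6 of 8. In each of these genes a further match of 3 units overlaps the one in capitals. A match is a description of the letters and was not tested as a binding site.

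Of the 10 genes, Hspd1, the mitochondrial HSP60, was the most abundant per length, at 96.8 ± 13.9 CPM per kilobase of exon (SD, n = 72). Its partner Hspe1 (HSP10) at 52.5 ± 10.5 and Hspa8, the constitutive HSP70, at 51.3 ± 18.5 followed and did not differ beyond their spread. Hsph1 and Hspa4l both belong to the HSP110 family. Hsph1, Hsp90aa1 (the inducible cytosolic HSP90), Dnaja1 and Dnajb1 (both HSP40 proteins) lay together between 13 and 13.4 on the same scale. Hspa1b had 7.21 ± 6.26, Hspa4l 3.46 ± 1.43 and Hspa1a 0.703 ± 0.718. These levels are lowered where a gene shares sequence with another: the share of 50-base windows found elsewhere was 66.3% in Hspa1a, 62.3% in Hspa1b, 47.5% in Hsp90aa1, 42.1% in Hspd1, 39.4% in Hspa8, 22.8% in Hspe1 and 20.6% in Dnaja1, and at most 0.412% in Dnajb1, Hspa4l and Hsph1. The length used is that of all annotated exons of a gene together, from 1474 bases in Hspe1 to 11792 in Hspa4l. The order of the genes therefore depends on the annotation as well, and the transcript lengths used in liver were not measured.

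Most of the chaperones had a daily rhythm with its peak in the dark phase in every arm, with the widest swing in the stress-inducible HSP70 genes. The group was put together with the knowledge that such rhythms are present without the liver clock. The counts of rhythmic members, and of members whose rhythm differed between the genotypes, are therefore a description. A wave of 24 h was fitted to each gene in each arm, and its amplitude is given on the log2 scale as the height of the peak over the daily mean. By edgeR's quasi-likelihood F-test, 9 of 10 members had a rhythm at an adjusted p below 0.05 in SPF WT, 9 in SPF LKO, 8 in GF WT and 10 in GF LKO, where the test called 23.8%, 25.4%, 32.2% and 32.1% of the 13484 genes tested. All 4 arms had a called rhythm in 7 members, and in 680 of all genes (5.04%). The members without a called rhythm were Dnajb1 in SPF WT (adjusted p = 0.199) and GF WT (0.223), Hspd1 in SPF LKO (0.0784) and Hspe1 in GF WT (0.245). The same numbers of members were called without the 4 libraries that stood apart, where 29.4%, 19.4%, 36.5% and 35.2% of all genes were. Without replicate 2 of every group, which leaves 48 libraries, they were 4, 4, 1 and 3. The share of all genes called in that setting was 10.2%, 4.77%, 20.7% and 18.0%, so that the count in GF WT was below it.

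**Figure D1:**
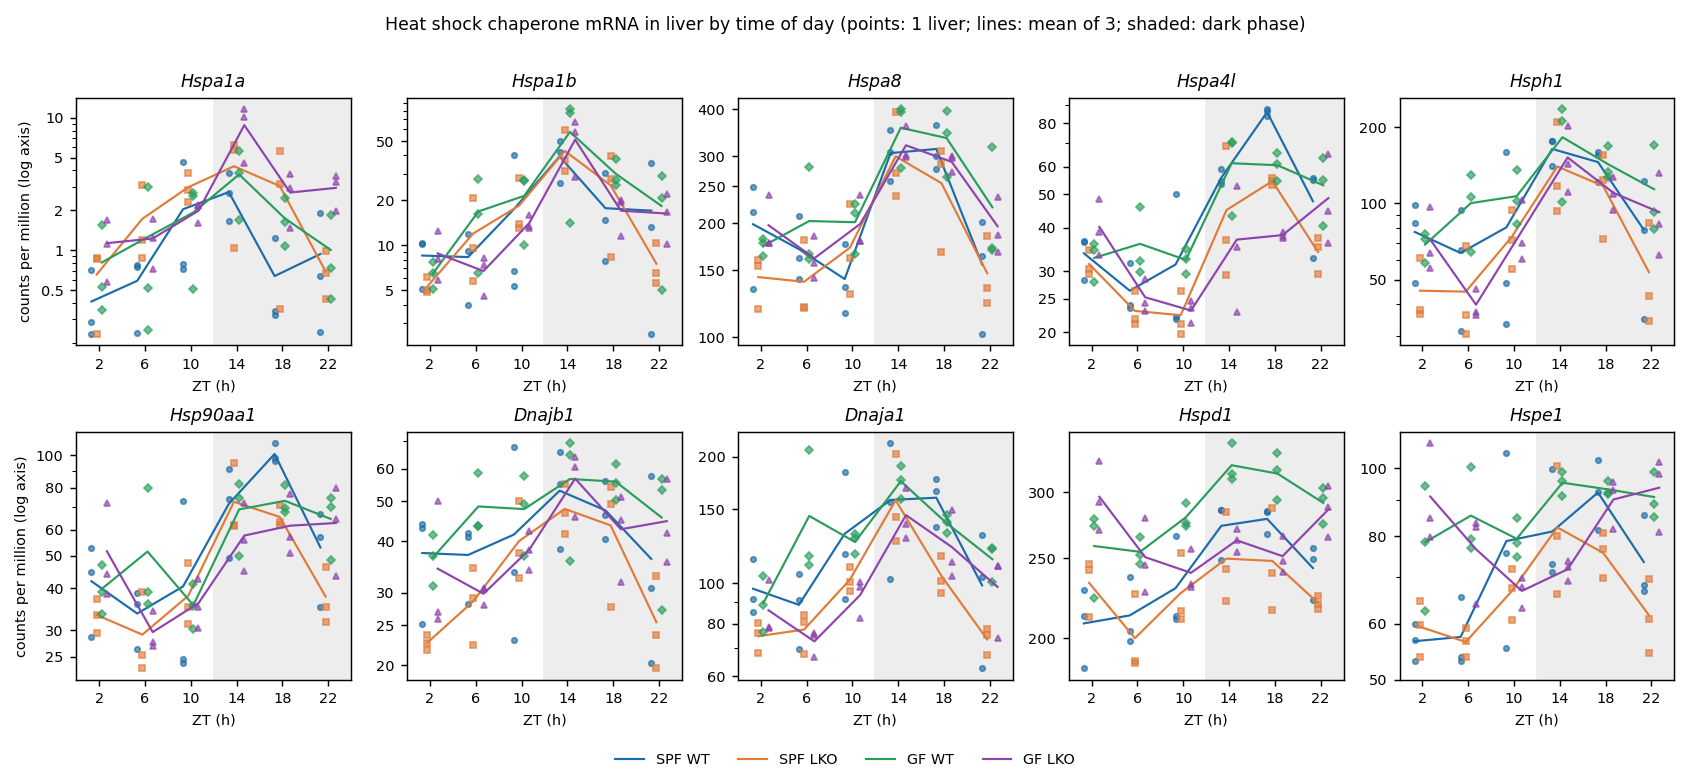
Level of each of the 10 genes by ZT, in CPM on a log axis, with 1 point per liver, lines through the means of 3 livers, the 4 arms in colour and the dark phase shaded. In SPF WT, SPF LKO and GF WT the means of the 10 genes are highest at ZT14 or ZT18, and in GF LKO those of Hspa4l, Hsp90aa1, Hspe1 and Hspd1 are highest at ZT22 or ZT2.

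Hspa1b shows the course most clearly. At ZT2 its level in the 3 SPF WT livers was 10.3, 5.08 and 10.3 CPM, and at ZT14 it was 49.99, 42.1 and 26. In SPF LKO it was 4.99, 4.83 and 6.11 at ZT2 and 31.7, 59.6 and 37.5 at ZT14. Every ZT14 liver of these arms lay above every ZT2 liver, and this held in SPF LKO also without replicate 2 at ZT14 (59.6), whose Npas2 level went against its label. In GF WT the values went from 6.48, 7.73 and 5.06 to 76.9, 81.7 and 14.0, and in GF LKO from 12.5, 8.10 and 5.82 to 28.5, 57.2 and 67.4. The groups did not overlap in the GF arms either, although 1 GF WT liver stayed far below the other 2 at ZT14. The fitted amplitude of Hspa1b was 1.01 ± 0.28 (SE) in SPF WT, 1.4 ± 0.28 in SPF LKO, 1.21 ± 0.27 in GF WT and 1.22 ± 0.28 in GF LKO, which is a 4.06- to 6.99-fold range from trough to peak, and the peaks fell at ZT15.3, 13.8, 14.5 and 15.5.

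Hspa1a, its neighbour, had few reads (4 to 212 per library), and its amplitude of 1.21 ± 0.33, 1.39 ± 0.31, 1.0 ± 0.32 and 1.31 ± 0.30 in the same order of arms lay beside that of Hspa1b. Its peaks were at ZT13.1, 13.2, 13.5 and 15.6. Hspa8 is the HSP70 that cells make without stress, and it had a smaller swing, with amplitudes of 0.44 ± 0.12, 0.57 ± 0.12, 0.51 ± 0.12 and 0.44 ± 0.12. Its highest group means were 314 (SPF WT, ZT18), 300.1 (SPF LKO), 357 (GF WT) and 321 (GF LKO, the last 3 at ZT14) CPM, and its lowest were 142, 140, 174 and 161.

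Among the nucleotide exchange factors, Hsph1 reached 177, 176 and 140 CPM at ZT14 in SPF WT, and 94.4, 65.4 and 31.4 at ZT6. In SPF LKO it reached 93.4, 209 and 117 at ZT14, and 36.4, 67.6 and 30.4 at ZT6. The highest of the 3 SPF LKO values at ZT14 was that of replicate 2, whose Npas2 level went against its label. Amplitudes of Hsph1 were 0.66 ± 0.17, 0.89 ± 0.17, 0.56 ± 0.17 and 0.74 ± 0.18, with peaks between ZT15.1 and ZT16.7. Hspa4l peaked later, at ZT17.9 ± 0.5 (SE) in SPF WT, ZT18.2 ± 0.7 in SPF LKO, ZT17.5 ± 0.8 in GF WT and ZT20.9 ± 0.8 in GF LKO, with amplitudes of 0.80 ± 0.11, 0.60 ± 0.11, 0.52 ± 0.11 and 0.50 ± 0.11.

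Hsp90aa1, the inducible HSP90, stood at 98.2, 109 and 96.0 CPM at ZT18 in SPF WT and at 38.7, 35.9 and 26.3 at ZT6. In SPF LKO it had 61.9, 63.2 and 71.2 at ZT18 and 25.3, 38.9 and 23.1 at ZT6, so that the livers of these 2 times did not overlap in either SPF arm. Its amplitude was 0.74 ± 0.13 in SPF WT, 0.66 ± 0.13 in SPF LKO, 0.42 ± 0.13 in GF WT and 0.54 ± 0.13 in GF LKO. The HSP40 genes differed from each other. Dnaja1 had a called rhythm in all 4 arms, with amplitudes of 0.34 to 0.51 and peaks between ZT13.2 and ZT16.2. Dnajb1, the HSP40 that partners inducible HSP70, was called in SPF LKO (0.57 ± 0.12, adjusted p = 0.00188) and GF LKO (0.37 ± 0.12, adjusted p = 0.0438), and had 0.26 ± 0.12 and 0.26 ± 0.12 in SPF WT and GF WT. The test of the difference in rhythm did not call Dnajb1 between the genotypes (adjusted p = 0.549 in SPF and 0.786 in GF).

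The mitochondrial chaperonin had the lowest amplitudes, except that Dnajb1 (0.26) lay below Hspe1 in SPF WT. Hspd1 amplitudes were 0.23 ± 0.04, 0.12 ± 0.04, 0.19 ± 0.04 and 0.12 ± 0.04, and those of Hspe1 were 0.35 ± 0.06, 0.26 ± 0.06, 0.12 ± 0.06 and 0.26 ± 0.06, in SPF WT and SPF LKO and then GF WT and GF LKO. Over the 10 members the median amplitude was 0.56, 0.59, 0.46 and 0.47, where the median of all genes tested was 0.17, 0.17, 0.18 and 0.18. Between the highest and the lowest ZT the libraries of 9, 9, 8 and 10 members did not overlap, which 57.5%, 62.1%, 63.7% and 70.5% of all genes also showed. The ratio of the 2 means ran from 1.34 to 6.70 in SPF WT, 1.25 to 8.09 in SPF LKO, 1.22 to 8.96 in GF WT and 1.24 to 7.79 in GF LKO.

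**Figure D2:**
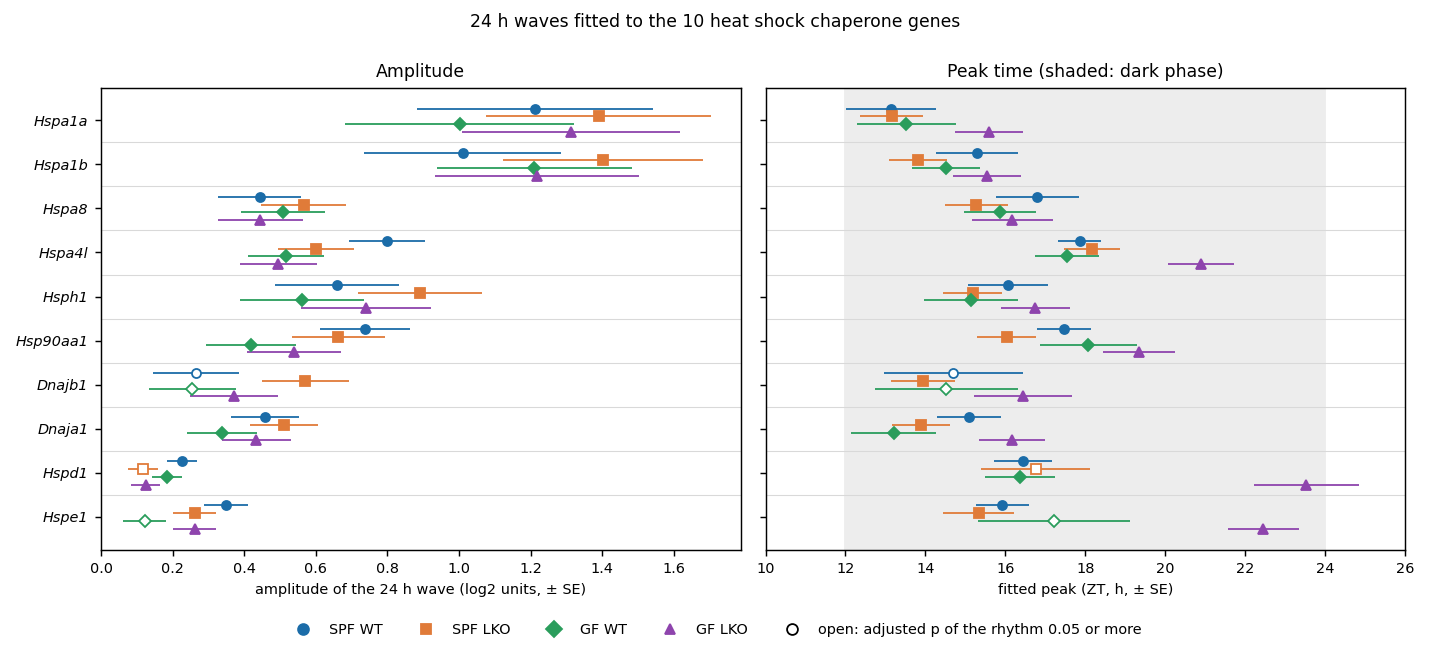
Amplitude of the fitted wave (left, log2 units) and fitted peak time (right, ZT in hours, dark phase shaded) of each gene in the 4 arms, with standard errors from 72 livers. Hspa1a and Hspa1b have amplitudes of 1.0 to 1.4 and Hspd1 and Hspe1 of 0.12 to 0.35, and the GF LKO peak is the latest of the 4 arms in each gene but Hspa8, where SPF WT peaks at ZT16.8 and GF LKO at ZT16.2.

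All called peaks of the members lay in the dark phase, in each of the 4 arms, where 50.5%, 55.5%, 52% and 51.1% of all rhythmic genes had theirs. Between ZT13 and ZT19 they numbered 9 of 9 in SPF WT, 9 of 9 in SPF LKO, 8 of 8 in GF WT and 6 of 10 in GF LKO, where the share of all rhythmic genes was 26%, 35%, 22.1% and 29.7%. In GF LKO the remaining 4, Hspa4l, Hsp90aa1, Hspd1 and Hspe1, peaked between ZT19.3 and ZT23.5.

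Whether loss of Bmal1 altered these rhythms was tested on the difference of the waves. In SPF mice 0 of the 10 members differed between LKO and WT by edgeR's quasi-likelihood F-test, where 1.77% of all genes did. This count lies near the share of all genes, and the members were chosen for rhythms kept without the liver clock. The lowest adjusted p was 0.549, 0 members had an unadjusted p below 0.05, and the analogous DESeq2 and limma tests also called 0. The amplitude of Hspa1b was 0.39 higher in SPF LKO, with a 95% interval from -0.38 to 1.16, that of Hspa8 was 0.12 higher (-0.20 to 0.45), and that of Hspa4l was lower, at -0.20 (-0.49 to 0.10). Intervals of this width leave room for sizeable differences in the inducible genes. In the same test, 9 of 12 clock genes differed between SPF LKO and SPF WT, among them Tef (adjusted p = 1.32e-05) and Cry1 (3.9e-05).

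In GF mice 1 of 10 members differed between LKO and WT, where 5.89% of all genes did. This was Hspd1, whose wave peaked 7.17 ± 1.57 h (SE) later in GF LKO than in GF WT (adjusted p = 0.0116). Its level in GF WT was 273, 224 and 279 CPM at ZT2 and 344, 315 and 311 at ZT14. In GF LKO the order was turned, with 327, 292 and 270 at ZT2 and 263, 254 and 271 at ZT14. The groups did not overlap in GF WT, and in GF LKO the ZT2 and ZT14 livers met at 270 and 271. The call was lost with ZT as a factor in place of the wave, with no filter on low counts, and without replicate 1 or replicate 2 of every group, where the adjusted p reached 0.214.

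The absence of microbes gave no called difference of rhythm in WT mice (0 of 10 members, where 0.0371% of all genes differed, lowest adjusted p = 0.300 for Hspe1, 1 member with an unadjusted p below 0.05, and 0 by DESeq2 and limma). In LKO mice 1 of 10 differed between GF and SPF, where 2.54% of all genes did. This was Hspe1, which peaked 7.12 ± 1.25 h later in GF LKO than in SPF LKO (adjusted p = 0.0158) at nearly equal amplitude (0.26 in both). In SPF LKO its level was 53.9, 59.8 and 64.7 CPM at ZT2 and 80.1, 101 and 66.1 at ZT14. In GF LKO it was 109, 79.7 and 85.1 at ZT2 and 69.1, 72.4 and 73.9 at ZT14, so that the ZT2 livers were above the ZT14 livers in 1 arm and below them in the other. Without SPF LKO ZT14 replicate 2, the library with the highest of these ZT14 values and an Npas2 level that goes against its label, the test called 0 members (adjusted p of Hspe1 0.0565). The call was also lost with ZT as a factor and without any 1 of the 3 replicate numbers (up to 0.188).

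The fitted peaks of GF LKO were the later ones in all members, although the difference of rhythm passed the test in only these cases. All 10 members had a later fitted peak in GF LKO than in GF WT, by 0.31 to 7.17 h (median 2.00), and all 10 had a later one than in SPF LKO, by 0.90 to 7.12 h (median 2.47). The standard errors of these shifts were 1.16 to 2.17 h and 1.09 to 1.89 h. These comparisons share the GF LKO libraries and are not independent of each other. The members were measured in the same livers and varied together, so they are not separate observations. Their median pairwise r was 0.61 after the mean of arm and ZT was subtracted. Among members rhythmic in both arms, 8 of 8 and 9 of 9 were later, where 62.4% and 71.8% of all such genes were. The median shift of these members was 1.84 and 2.44 h, and that of all such genes 0.68 and 1.18 h. In SPF LKO against SPF WT 2 of 8 members were later (64.4% of genes), and in GF WT against SPF WT 2 of 8 (64.5%).

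The level over the whole day was called different in few members. The test pooled the times, which leaves the daily swing in its error. In SPF mice 0 of 10 members differed between LKO and WT by edgeR's quasi-likelihood test with the times pooled, where 23.1% of 13159 genes did (11.6% higher and 11.5% lower), although 3 members had an unadjusted p below 0.05, and DESeq2 called 0. Of the members, 8 had a log2 fold change below 0, and the median was -0.22. Hspa4l was at -0.42 ± 0.19 (SE, adjusted p = 0.120), Dnaja1 at -0.32 ± 0.15 (0.123) and Hspa1a at 0.87 ± 0.42 (0.133). Hspa4l and Dnaja1 passed the test with ZT as a factor, and also without SPF LKO ZT14 replicate 2, the library with the highest SPF LKO level of both genes (68.8 and 203 CPM).

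In GF mice Dnaja1 fell by 0.34 on the log2 scale in LKO (± 0.12 SE, adjusted p = 0.0259), the only one of 10 members called, where 30.8% of 12662 genes differed (15.6% higher and 15.2% lower). Its level ranged from 76.6 to 207 CPM in GF WT, with a median of 125, and from 66.7 to 169 in GF LKO, with a median of 101, so that the arms overlapped. The highest GF WT value, 207, was that of ZT6 replicate 3, against 116 and 110 in its group, and without this library the call was lost. Hspa1a stood at 0.84 ± 0.37 (adjusted p = 0.0826) and Hspa4l at -0.37 ± 0.15 (0.0568), close to their values in SPF mice. With ZT as a factor 4 members were called (Hspa1a higher, Hspa4l, Hsph1 and Dnaja1 lower). The effect of genotype did not differ between GF and SPF mice for any member by the test of the interaction (0 of 10, where 0.438% of genes differed, lowest adjusted p = 0.976, 0 with an unadjusted p below 0.05, and 0 by DESeq2).

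The mitochondrial chaperonin was higher in germ-free mice of both genotypes. In GF WT against SPF WT, 31.8% of 12776 genes differed (14.2% higher and 17.7% lower). Hspd1 rose by 0.23 ± 0.06 (adjusted p = 0.00337) and Hspe1 by 0.23 ± 0.09 (0.0392), the 2 members called. In GF LKO against SPF LKO, where 36.4% of 13010 genes differed (18.1% higher and 18.4% lower), the same 2 genes were called, with Hspd1 at 0.20 ± 0.05 (0.00341) and Hspe1 at 0.28 ± 0.08 (0.00471). Hspd1 spanned 184 to 286 CPM in SPF WT (median 243) and 224 to 344 in GF WT (median 285), and 187 to 288 in SPF LKO (median 224) and 227 to 327 in GF LKO (median 264). The GF and SPF livers overlapped in both genotypes. Without GF WT ZT6 replicate 3, Hspe1 was no longer called in WT mice. Scaled by library totals in place of TMM, the same test called Hspd1 in neither genotype (adjusted p = 0.305 in WT and 0.0988 in LKO). Hspe1 was then not called in WT mice either.

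**Figure D3:**
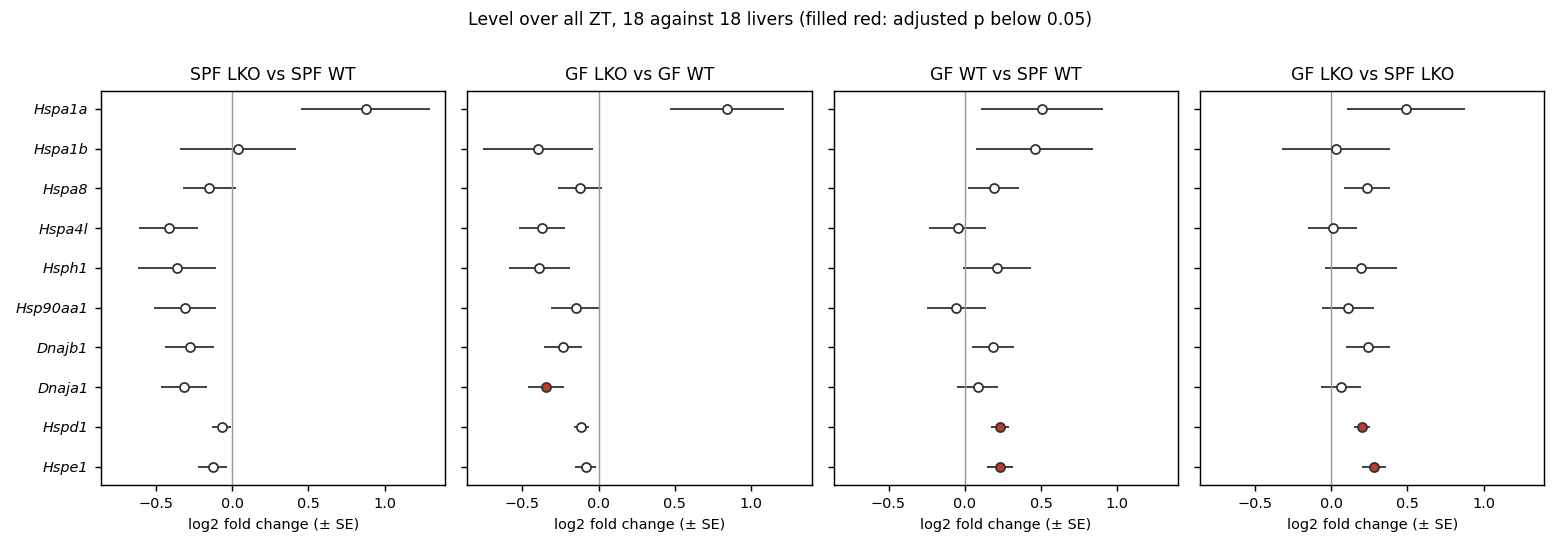
Difference of level over all ZT in 4 contrasts (log2 fold change with standard error, 18 against 18 livers), with red points where the adjusted p is below 0.05. Called are Dnaja1 in GF LKO against GF WT at -0.34, and Hspd1 and Hspe1 in both contrasts of GF against SPF at 0.20 to 0.28.

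These differences were small enough for the scaling to matter. Scaled by library totals in place of TMM, the median of all genes, near 0 with TMM, moved (to 0.0985, 0.182, -0.191 and -0.131 in the 4 contrasts), and the calls became 0 in SPF LKO against SPF WT, Hspa1a alone in GF LKO against GF WT, 0 in GF WT against SPF WT and Hspe1 alone in GF LKO against SPF LKO. Against that shift, the medians of the members were -0.11, -0.02, 0.05 and 0.10. Members with a value below 0 then numbered 7, 5, 3 and 3, where TMM gave 8, 9, 2 and 0. Markers of hepatocytes moved with these contrasts too. Of 5 markers, 1 (Alb) was lower in SPF LKO, 2 (Alb and Ttr) were lower in GF LKO against GF WT, 4 were higher in GF WT against SPF WT, and in GF LKO against SPF LKO 3 were higher and Alb was lower. Their summed level was 78440 to 129884 CPM in SPF WT, 41193 to 123289 in SPF LKO, 109814 to 168015 in GF WT and 48712 to 71098 in GF LKO, and none of the 5 was at 0. Most of this sum was Alb, with a median of 83211 CPM in SPF WT and 36647 in SPF LKO. Between these arms the medians of Ttr (5592 and 5392) and Tat (2106 and 1304) were also lower in SPF LKO. Those of Apoa1 (7972 and 8100) and Cps1 (4086 and 4740) were higher. The sum mainly follows Alb and does not measure hepatocyte number. The SPF LKO range includes the libraries whose Npas2 level went against their labels, and is not given without them. The part of these markers in the chaperone levels was not tested, and in whole liver fewer cells of a type and less RNA per cell cannot be told apart.

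At single times, Hspa4l at ZT18 was the one gene that differed in all 4 contrasts. The 3 livers of each group lay close together, at 86.5, 87.7 and 83.9 CPM in SPF WT, 55.5, 53.2 and 54.6 in SPF LKO, 61.2, 65.7 and 54.6 in GF WT, and 38.9, 38 and 37.4 in GF LKO. SPF WT stood above and GF LKO below every other group, while SPF LKO and GF WT met at 55.5 and 54.6. The log2 fold change was -0.65 ± 0.08 in SPF LKO against SPF WT (adjusted p = 0.0217, where 0.015% of genes were called at this time) and -0.64 ± 0.08 in GF LKO against GF WT (0.00254, with 8.43% called). It was -0.52 ± 0.08 in GF WT against SPF WT (0.0187, with 0.983% called) and -0.51 ± 0.08 in GF LKO against SPF LKO (0.0196, with 3.71% called). The call in GF LKO against GF WT was kept under all 16 alternatives and that of SPF LKO against SPF WT under 6 of 16, with any 1 of the 3 SPF WT livers and SPF LKO replicate 2 or 3 each able to end it (adjusted p up to 0.168). The call in GF WT against SPF WT was lost without SPF WT replicate 1 or 2 or GF WT replicate 1 or 3 (up to 0.109), and that in GF LKO against SPF LKO without GF LKO replicate 2 or 3 (up to 0.0533). At ZT18 the libraries of SPF LKO include replicate 1, whose Npas2 level went against its label, while its Hspa4l level of 55.5 was like that of the other 2. Over all 6 times, 4.92% of gene and time pairs were called in SPF LKO against SPF WT. The share called at ZT18 without this library is not given.

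At ZT6 in GF mice, Dnaja1, Dnajb1 and Hsph1 were lower in LKO, and the other 7 members were not called. Dnaja1 had 116, 110 and 207 CPM in GF WT and 66.7, 75.1 and 76.3 in GF LKO. Its log2 fold change was -0.99 ± 0.22 (adjusted p = 0.0108, where 11.7% of genes were called), and those of Dnajb1 and Hsph1 were -0.70 ± 0.18 (0.0259) and -1.33 ± 0.38 (0.0364). For Dnajb1 the livers stood at 58.7, 43.7 and 43.5 in GF WT and at 28, 30.9 and 30.6 in GF LKO, and for Hsph1 at 106, 64.5 and 130 and at 36.4, 37.3 and 45.8. No liver of 1 genotype overlapped the other in the 3 genes. Without GF WT ZT6 replicate 3, Dnaja1 and Dnajb1 were still called (adjusted p = 0.0202 and 0.0259) and Hsph1 was not (0.107). Dnaja1 was also lost without GF LKO ZT6 replicate 1 (0.0502), Dnajb1 and Hsph1 without GF WT ZT6 replicate 1 (0.0985 and 0.0808) or any 1 of the 3 GF LKO livers (up to 0.0925 and 0.119). Hspa1b had a log2 fold change of -1.33 that did not pass (adjusted p = 0.141), and 1 of its GF WT livers, at 6.56, lay within the GF LKO range of 4.56 to 8.17.

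Hspe1 supplied the other calls. In GF WT against SPF WT at ZT6 it was higher by 0.58 ± 0.14 (adjusted p = 0.0461, where 2.62% of genes were called), with 79.4, 77.1 and 100.4 CPM against 65.6, 53.8 and 53.1, a call kept under 4 of 16 alternatives and lost without any 1 of the 3 GF WT livers or SPF WT replicate 2 or 3 (adjusted p up to 0.177). In GF LKO against SPF LKO it was higher at ZT2 by 0.62 ± 0.15 (0.0227, with 8.92% called) and at ZT22 by 0.61 ± 0.14 (0.0397, with 2.25% called). At ZT22 the GF LKO livers stood at 81.0, 98.3 and 102 and the SPF LKO livers at 69.6, 54.6 and 61.1, without overlap. The ZT2 call was lost without any 1 of the 3 SPF LKO livers or GF LKO replicate 1 or 3 (adjusted p up to 0.103), and the ZT22 call without replicate 2 or 3 of either arm (up to 0.162). Livers outside a contrast share its error estimate, and leaving out some of these ended calls as well.

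In all, 1, 4, 2 and 3 of 60 pairs of a member and a time were called in the 4 contrasts, where 4.92%, 7.99%, 2.89% and 2.71% of all pairs of a gene and a time were. DESeq2 called 5, 6, 4 and 5, and edgeR without the filter on low counts called 18, 15, 15 and 17. The shares above are those of edgeR with the filter. Shares of all genes under these alternatives are not given, so their counts cannot be set against the shares above.

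**Figure D4:**
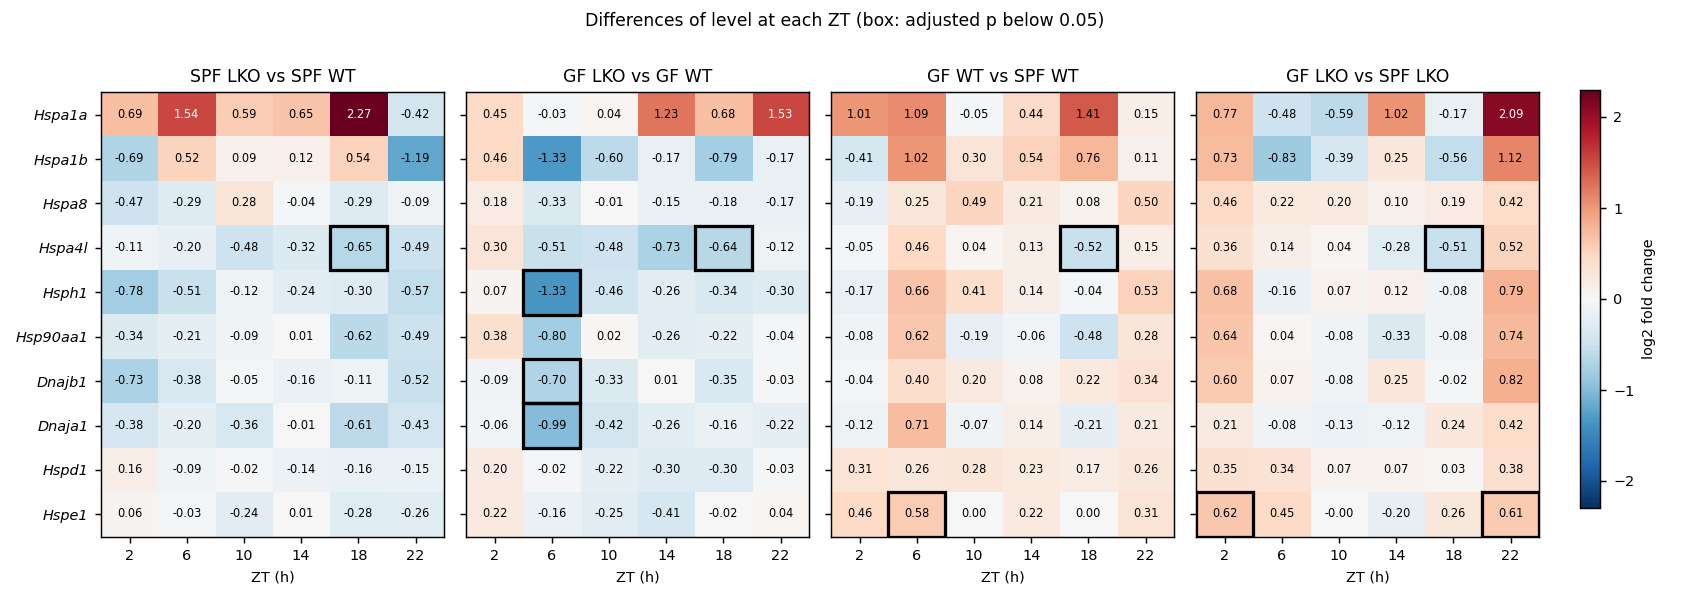
Log2 fold change of each gene at each ZT in the 4 contrasts (colour scale and printed value, 3 against 3 livers), with a box where the adjusted p is below 0.05. Hspa4l at ZT18 is boxed in all 4 contrasts, Hsph1, Dnajb1 and Dnaja1 are boxed at ZT6 in GF LKO against GF WT, and Hspe1 at ZT6, ZT2 and ZT22 in GF against SPF.

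The helpers of HSP70 and HSP90 went with the same course in part. Of 4 regulators, Bag3, an HSP70 cochaperone that HSF1 is known to induce, was rhythmic in all 4 arms, with amplitudes of 0.40 ± 0.12, 0.65 ± 0.12, 0.49 ± 0.12 and 0.73 ± 0.12 and peaks from ZT14.6 to ZT15.0. The mRNA of Hsf1 itself was rhythmic in none (amplitudes 0.05 to 0.14, lowest adjusted p = 0.120), and that of Hsf2 was rhythmic in GF WT and GF LKO. Of 14 cochaperones 7, 8, 4 and 11 were rhythmic, where 23.8%, 25.4%, 32.2% and 32.1% of all genes were, so that the share in GF WT was below that of all genes. Fkbp4, an HSP90 cochaperone of steroid receptors, had amplitudes of 0.46, 0.40, 0.40 and 0.48, called in all arms. Chordc1, another HSP90 cochaperone, had 0.51, 0.43 and 0.37 in SPF WT, SPF LKO and GF LKO, all called, and 0.25 in GF WT (adjusted p = 0.106). The median amplitude of the cochaperones was 0.18, 0.19, 0.14 and 0.24, where that of all genes was 0.17, 0.17, 0.18 and 0.18.

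Other chaperone families were mixed. Of the 8 subunits of the cytosolic chaperonin CCT, 4, 6, 2 and 4 were rhythmic, all with an amplitude below 0.24, and the share in GF WT was again below that of all genes. Of 8 endoplasmic reticulum chaperones 4, 8, 5 and 8 were rhythmic, with a median amplitude of 0.25, 0.39, 0.35 and 0.47, and Dnajb9 (0.47, 0.56, 0.40 and 0.78) was called in all arms. Of 8 mitochondrial chaperones other than Hspd1 and Hspe1, 4, 5, 6 and 2 were rhythmic, with the share in GF LKO below that of all genes. Clpx, a subunit of a mitochondrial protease, is a gene whose rhythm did depend on genotype, with amplitudes of 1.33 and 1.46 in SPF WT and GF WT and 0.29 and 0.29 in SPF LKO and GF LKO (adjusted p of the difference 3.99e-11 in SPF and 1.28e-13 in GF). Cirbp, the cold-inducible RNA-binding protein, had amplitudes of 0.45, 0.50, 0.44 and 0.67, all called, and peaked in the light phase at ZT3.9 to ZT6.8.

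**Figure D5:**
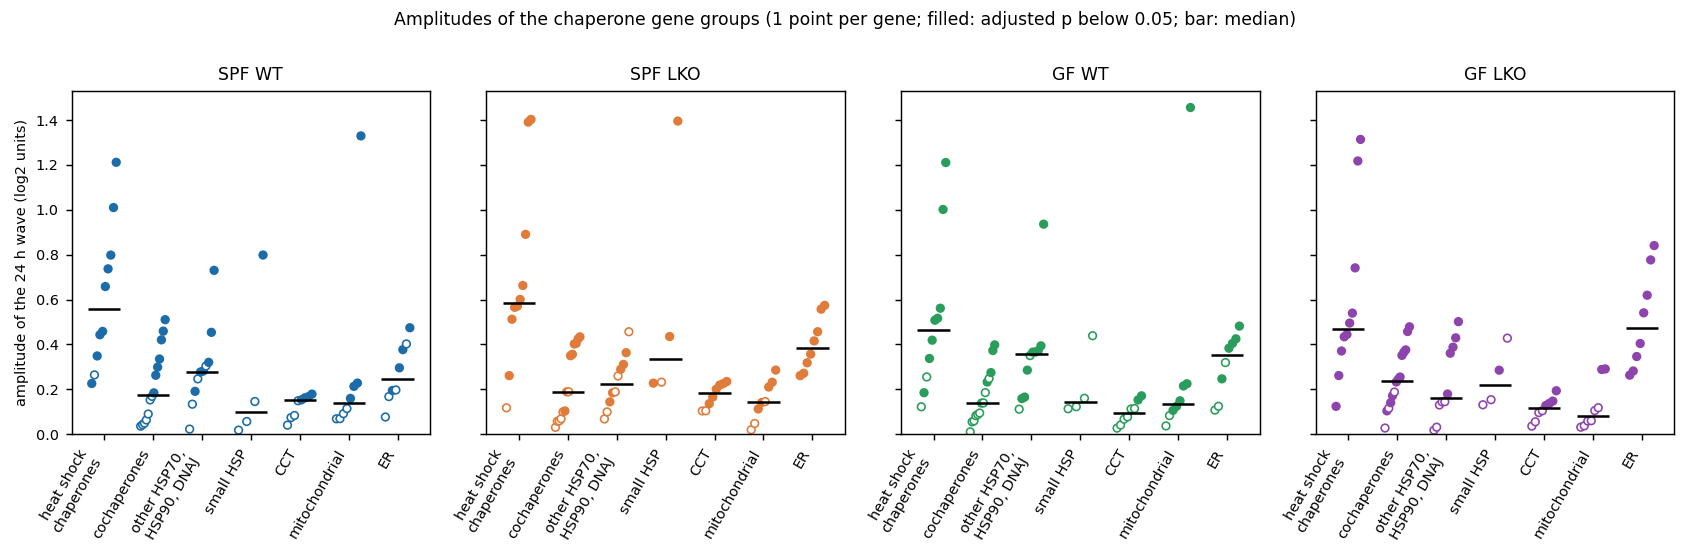
Amplitude of the fitted 24 h wave (log2 units) of the 10 heat shock chaperones and of 6 other chaperone groups in each arm, with 1 point per gene, filled where the rhythm is called, and a bar at the group's median. The medians of the 10 genes are 0.46 to 0.59, those of the cochaperones 0.14 to 0.24, and Clpx is the mitochondrial gene above 1.3 in both WT arms.

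Across the 24 means of arm and time, the genes most like the average course of the 10 members were Ube2f (Pearson's r = 0.967), Chordc1 (0.937), P4ha1 (0.935), Nus1 (0.924) and Serp1 (0.917), where the median r of 10737 genes was 0.02. P4ha1 encodes a collagen prolyl hydroxylase and Serp1 a protein of the endoplasmic reticulum translocon. Cirbp ranked 10733 with r = -0.890, while Rbm3, the other gene listed as a cold-inducible RNA-binding protein, ranked 5801 with r = -0.031. The 24 points share their libraries between genes, and the correlations are given as a description.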

How the data were processed

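Poly(A) RNA of 72 livers was sequenced by the authors as 50-base single-end reads and aligned with STAR 2.6.1b to mm10, and the deposited values are raw counts per gene from featureCounts 2.0.0 with Ensembl 97. No strand setting is stated, and reads with several matches or overlapping genes were not counted, which lowers genes with close copies. The members and lists were chosen with earlier results of these data known.

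Counts were tested in edgeR 4.0.16 (R 4.3.3) with TMM scaling, filterByExpr and quasi-likelihood tests, with Benjamini-Hochberg adjustment over all genes and a threshold of 0.05. A cosine and sine of 24 h per arm gave rhythms and their differences over 72 libraries. Levels were compared over all ZT between the 2 arms of a contrast, and at each ZT within the 12 libraries of that time. Amplitude and peak errors follow from the coefficients by the delta method, and intervals are 95%. CPM use TMM-scaled library sizes. Between 17369927 and 22076113 counts per library were available, so the counting error is small except for Hspa1a. The scripts were tested on simulated data. The eJTK rhythm test of the study was not run. All 10 members are named, and in the other lists the genes that passed a test of the difference or were highest or lowest. Besides these, Bag3, Hsf1, Hsf2, Cirbp and Rbm3 are named for their known roles. Alternatives were DESeq2 1.42.0, limma 3.58.1 on variance-stabilized values, other scaling, filter, shape and block, and libraries left out. The promoters came from RefSeq.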

Additional observations from a re-analysis of the deposited data

Results flagged for a closer look

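The rhythm of Hspd1 differed between GF LKO and GF WT by a test of the difference itself (edgeR's quasi-likelihood F-test of the waves, adjusted p = 0.0116), with a peak at ZT23.5 in GF LKO and ZT16.4 in GF WT. The rhythm of Hspe1 differed between GF LKO and SPF LKO by the same test (adjusted p = 0.0158), with peaks at ZT22.5 and ZT15.3. Both genes encode the mitochondrial chaperonin, they share a promoter region, and the 2 comparisons share the GF LKO libraries. Over 15 alternatives the call was made in 11 for Hspd1 (adjusted p from 0.00189 to 0.214) and in 10 for Hspe1 (0.00336 to 0.188). With 3 livers per group and time, no single group was tested for a sample far from the others.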

How the results depend on the processing

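No log2 fold change of a called member turned its direction under the alternatives run. Amplitudes are positive by construction and the tests of a rhythm difference carry no sign, so neither could turn. The counts of rhythmic members (9 and 9 in SPF WT and SPF LKO, 8 and 10 in GF WT and GF LKO) ranged over 4 to 9, 4 to 9, 1 to 8 and 3 to 10 with libraries left out, where dropping a replicate number leaves 48 of 72 libraries. Fitted on the 18 libraries of its own arm, SPF WT had 5, where 16.9% of all genes tested were called. Hspa1a was not tested there, as it did not pass the filter (nor in SPF LKO and GF WT). Members that differed in rhythm between GF LKO and GF WT (1) numbered 2 with library totals or on the libraries of the 2 arms alone, 0 with no filter or with ZT as a factor, and 0 to 1 with libraries left out. Between GF LKO and SPF LKO (1) they numbered 0 with ZT as a factor and 0 to 1 with libraries left out.

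Members with a different level over all ZT (0, 1, 2 and 2 in SPF LKO against SPF WT, GF LKO against GF WT, GF WT against SPF WT and GF LKO against SPF LKO) numbered 2 and 4 in the first 2 contrasts with ZT as a factor, and 2 in the second with DESeq2. They numbered 0 and 1 in the last 2 contrasts with library totals, and 2, 0 and 1 in the first 3 without the 4 libraries that stood apart. With libraries left out they ranged over 0 to 2, 0 to 2, 1 to 2 and 1 to 2. Called pairs of member and ZT (1, 4, 2 and 3) numbered 18, 15, 15 and 17 with no filter, where the standard errors of the members were 0.133 to 0.220 against 0.0839 to 0.702. DESeq2 gave 5 in SPF LKO against SPF WT, 4 in GF WT against SPF WT and 5 in GF LKO against SPF LKO, library totals gave 0 and 1 in the former pair, and libraries left out gave 0 to 5, 1 to 7, 1 to 4 and 2 to 5. The cause of these moves was not tested, and the shares of all genes under these settings are not given.

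Same-numbered livers mostly did not deviate together: the correlation of their deviations was over 0.1 in 6, 3, 6 and 3 of 18 pairs per contrast (from -0.315 to 0.417). The main tests therefore did not pair the mice by number, and shared handling of some pairs was not tested. With each combination of ZT and replicate number as a block, levels over all ZT were called in 3, 4, 2 and 4 members. This block also takes out the time of day, and ZT alone as a factor gave 2, 4, 2 and 3. With the replicate number as a block, pairs of member and ZT were called in 0, 3, 2 and 2. Depth limits Hspa1a, with 4 to 212 counts per library.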

Other observations

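Some chaperone genes outside the 10 passed edgeR's quasi-likelihood test of the level over all ZT. Hspb1, a small heat shock protein, was lower in LKO, at -1.08 on the log2 scale in SPF (adjusted p = 0.0261) and -1.70 in GF (6.64e-09). It was also lower in GF, at -0.65 in WT (0.0434) and -1.27 in LKO (0.00407). Its median level was 4.55 CPM in SPF WT, 1.48 in SPF LKO, 2.62 in GF WT and 0.979 in GF LKO. Dnaja4, an HSP40 gene, was higher in LKO, by 1.43 in SPF and 1.66 in GF, and Clpx, the protease subunit, by 1.03 and 1.11. Grpel2, a nucleotide exchange factor of mitochondrial HSP70, was lower in LKO, at -0.65 and -0.69.

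Hspa1a made up a larger part of the reads of the Hspa1a and Hspa1b pair in the LKO arms. Its share had a median of 6.02% (2.27 to 12.1) in SPF WT and 6.50% (2.46 to 16.7) in GF WT, and of 12.1% (1.72 to 17) in SPF LKO and 13.8% (9.02 to 17.4) in GF LKO. The libraries labelled SPF LKO ZT14 replicate 2 and SPF LKO ZT18 replicate 1, whose Npas2 level went against their labels, had shares of 1.72% and 4.17%, where the other livers of their groups had 10.2% to 16.3%. Without them the SPF LKO median was 12.5% (4.59 to 17). The difference was noticed in these data and was not tested.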
